A study of Mus musculus with 9 samples.

Results

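The histone genes of mouse round spermatids (RS), canonical and variant, are described here from RNA-seq of RS cells treated in culture. Members were every gene whose symbol in the deposited table starts with H1f, H2a, H2b, H3c, H3f, H4c or H4f, or with an older Hist symbol, leaving out the H2- genes of the histocompatibility complex. Of the 55414 genes listed, 113 carried such a name. Of these, 60 had at least 10 counts summed over the 9 libraries and were tested among 25128 genes in all. The other 53 were too scarce, 24 without a count in any library and 29 with 1 to 9 counts. At the edge of that threshold, H4c4 with 9 counts fell outside and H1f8 with 11 counts fell inside.

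Testes came from mice on a C57Bl/6 background in which Stra8-iCre, active from early spermatogonia on, switches on a tdTomato reporter driven by the CAG promoter. The labels give the genotype as WT. RS cells were sorted by their tdTomato level and size. All 3 groups were then incubated for 24 h with 0.15% DMSO. The vehicle group received neither compound, and the methods state that untreated cells were given matching solvent volumes. The oxamate group received 24 mM oxamate, an inhibitor of lactate dehydrogenase. The third group received 24 mM oxamate together with 0.3 mM octyl-L-2HG, an ester of L-2-hydroxyglutarate that enters cells, and is called the octyl-L-2HG group below. Each group had 3 libraries. Libraries 1 to 3 are vehicle, libraries 4 to 6 oxamate and libraries 7 to 9 octyl-L-2HG. There was no group with octyl-L-2HG alone. The methods name prepubertal and adult mice, but not which gave these libraries nor how many mice a library held, so p-values measure the spread between these libraries, which may be technical.

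DNA is wrapped around cores of the histones H2A, H2B, H3 and H4 and is sealed by the linker histone H1. Most core histone genes are replication-dependent: they are transcribed in S phase, and their mRNA ends in a short stem-loop in place of a poly(A) tail. RS cells no longer replicate DNA and make variants from genes outside that programme, many of them specific to the testis. As spermatids elongate, histones give way to transition proteins and then to protamines, and several testis variants act in that exchange.

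The libraries held 32339533 to 39888396 counted reads. Oxamate library 4 stood apart from the other oxamate libraries, since its counts differed from those of libraries 5 and 6 by a chi-square of 21.9 and 27.4 for each degree of freedom, and these differed from each other by 2.31. In vehicle, library 1 differed from libraries 2 and 3 by 13.9 and 13.2, and these from each other by 7.52. In the octyl-L-2HG group, library 7 differed from library 9 by 8.22, against 3.40 between 7 and 8 and 2.68 between 8 and 9. The 10 RS markers were all detected, with summed normalized counts of 105658 to 108369 per library. The 5 detected Sertoli markers of 10 summed to at most 54.0, with Sox9 at a mean of 1.2, and the 10 spermatogonial markers to at most 580, so RNA of those cells was scarce in every library. Spermatocyte markers were not scarce. The 10 for pachytene and diplotene summed to 82503 to 96653, with Tcp11 at a mean of 58990 and Sycp3 at 810, with overlapping groups. The 10 for leptotene and zygotene, with Smc1b at a mean of 10684 and Dmc1 at 9.8, summed to 18819 to 20858 in vehicle, 19801 to 21486 in oxamate and 21716 to 22303 in octyl-L-2HG, the highest group without overlap. Of the scarce somatic markers, those of myoid cells and macrophages were highest in vehicle. The 6 peritubular myoid markers summed to 78.2 to 103 in vehicle, 66.7 to 74.5 in oxamate and 54.2 to 61.8 in octyl-L-2HG, without overlap. The 4 detected macrophage markers of 6 summed to 152 to 176, 120 to 135 and 110 to 129, with vehicle highest and the other groups overlapping. The 4 detected Leydig markers of 6 summed to 29.4 to 39.1 in vehicle, 23.0 to 29.5 in oxamate and 31.4 to 41.2 in octyl-L-2HG, and the Sertoli sums overlapped between the groups. The part of RNA of these cells in the fall of the histone genes was not tested. Normalized counts are raw counts divided by a size factor per library. In such bulk RNA, fewer cells of a type and less RNA per cell cannot be told apart.

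The libraries were made from poly(A)-selected RNA, and the end of the annotated transcripts therefore comes first. The histone stem-loop motif was spelled as GGNNCT, then the loop TTTN, then AGNNCC, with any base at N, and was searched on the sense strand of the GENCODE M21 transcripts. Its letters were found in 72 of 21901 protein-coding genes (0.329%) and in 46 of the 113 histone genes. Among the 60 tested histone genes, 26 carried them. The commonest forms and that of H2ax are shown, as the letters in which histone mRNA without a poly(A) tail is known to end. Capitals mark the paired arms of 6 bases each, and the lower case the loop of 4 bases.
Form of 15 genes, among them H2bc22, H2aw and H3c1: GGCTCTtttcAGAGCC
Form of 4 genes, H1f6, H2bc3, H3c6 and H3c7: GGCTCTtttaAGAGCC
Form of 3 genes, H4c3, H4c8 and H4f16: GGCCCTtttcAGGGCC
Form of H2ax: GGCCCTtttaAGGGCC

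The genes with the stem-loop letters were mostly scarce. Their median level was 11.7 normalized counts, against 119 for the 34 tested genes without the letters. Of the 21 histone genes with a mean of at least 100 normalized counts, 3 carried the letters, namely H2bc22, H2ax and H1f6. Each of these 3 also had an annotated transcript with a poly(A) signal (AATAAA or ATTAAA) in its last 60 bases. The H2ax transcript ran on for 822 bases after the stem-loop and that of H1f6 for 185. For H2bc22, 1 of the 2 annotated transcripts held the letters. Among all 26 genes with the letters, 15 had over 100 bases of transcript after them and 10 had such a signal, as did 20 of the 34 genes without the letters. Levels in this comparison are counts per gene and not per length. Absence of the letters can also come from a short annotation. The annotated transcripts of H2ac1, H2bc1 and H3f4, for instance, are 390, 384 and 411 bases long. A stem-loop past an annotated end would be missed.

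**Figure D1:**
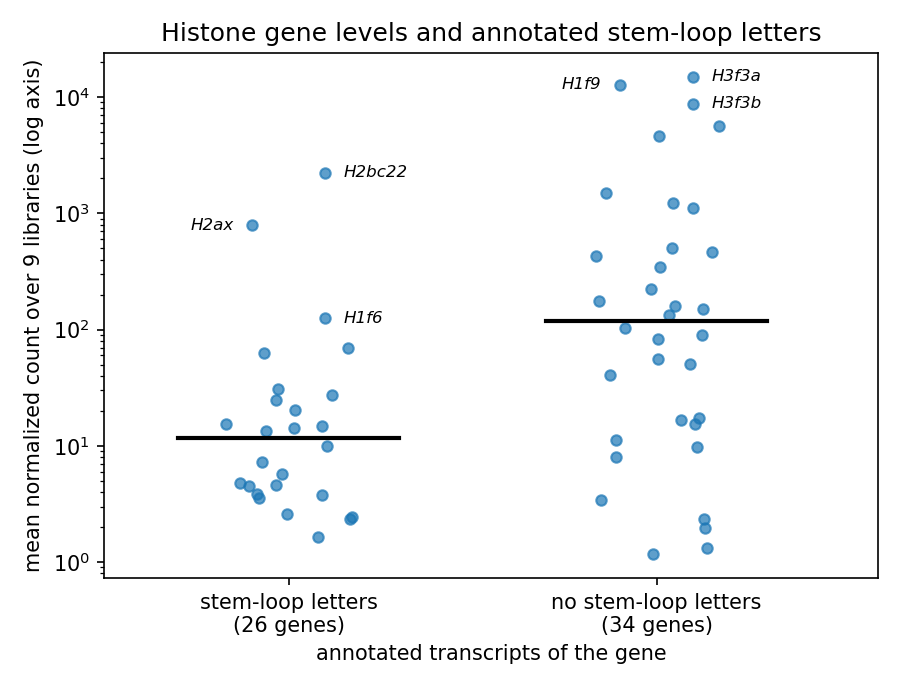
Mean normalized count over the 9 libraries (log axis) of the 60 tested histone genes, split by whether an annotated transcript holds the stem-loop letters; each point is a gene and the line is the median. The median is 11.7 with the letters and 119 without, and the 3 most abundant genes on each side are named.

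Per kilobase of the longest annotated transcript, H1f9 was the most abundant histone transcript. H1f9, also known as Hils1, encodes a linker histone of spermatids and stood at 16407 normalized counts per kb in vehicle. Next came H3f3a at 5354, H1f7 at 4869, H2az1 at 4617, H2bc22 at 3704, H3f3b at 3703 and H2bl1 at 3271 normalized counts per kb. On this scale the vehicle libraries of H1f7 and H2az1 overlapped, as did those of H2bc22 and H3f3b, so the order within these pairs is not resolved. H2ap followed at 2258, H1f10 at 1093, H4c1 at 1055 and H2al2a at 1006, the last 3 with overlapping vehicle libraries. H3f3a, H2az1 and H3f3b have 7, 7 and 4 annotated transcripts, against 1 for H1f9. Divided by a shorter transcript, the values of these 3 genes would be higher, and which transcript was expressed was not tested. As raw shares, H3f3a, H3f3b and H3f4 together held 40.3% of all histone counts in vehicle and the germ cell linker histones 33.8%, while the replication-dependent H2A and H3 genes held 0.2% each. The testis H2A and H2B genes H2ac1 and H2bc1, whose proteins are made in earlier germ cells, were scarce, with 6.6 to 20.9 and 5.7 to 10.5 normalized counts per library.

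**Figure D2:**
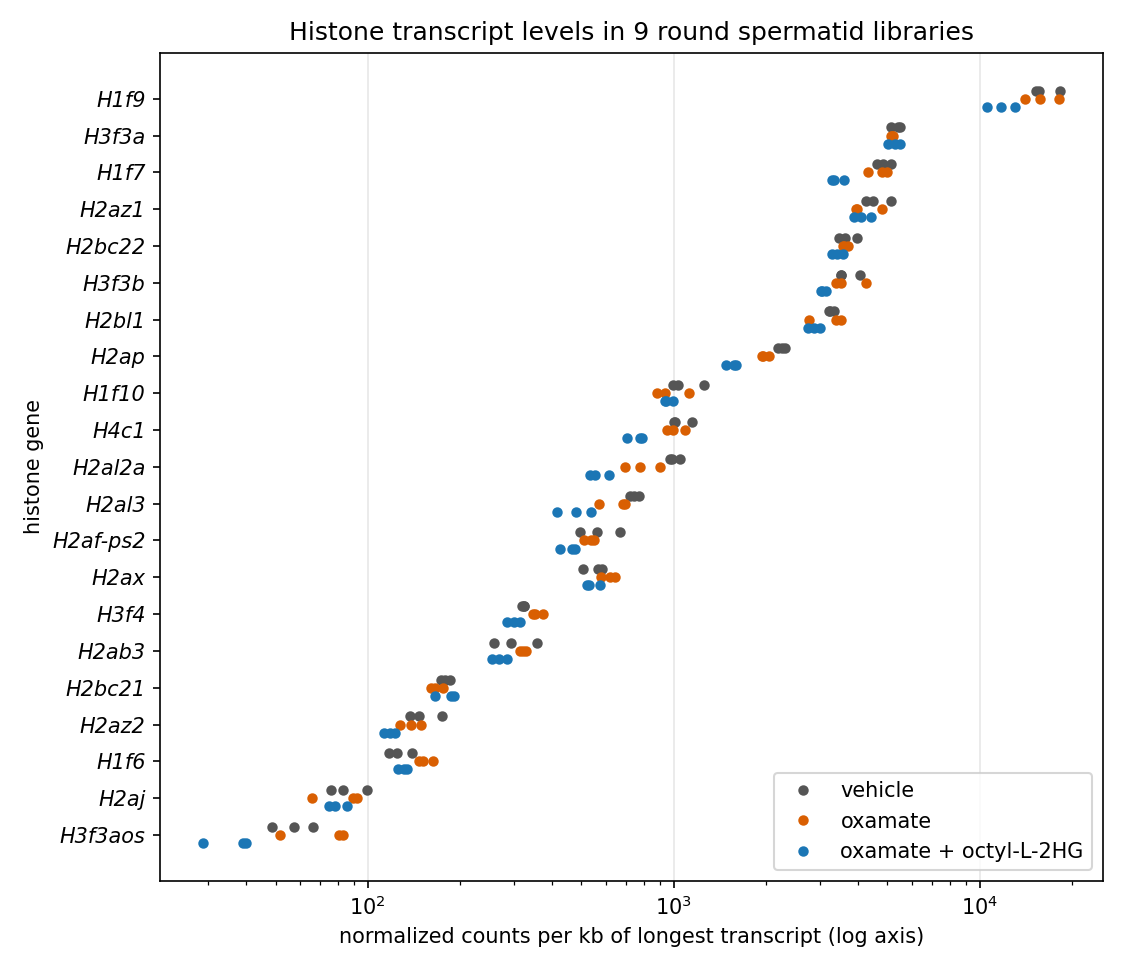
Normalized counts per kb of the longest transcript (log axis) for the 21 histone genes with a mean of at least 100 normalized counts; each point is 1 library, coloured by group. H1f9 lies to the right of all others, and the octyl-L-2HG libraries lie to the left of the other 6 for H1f9, H1f7, H2ap, H4c1, H2al2a, H2al3, H3f3b and H3f3aos, among others.

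The first question was whether inhibition of lactate dehydrogenase changed these transcripts, and the second whether adding octyl-L-2HG to oxamate did. With oxamate alone, H2al2a was the 1 histone gene that passed the test, and it fell. With octyl-L-2HG added, the spermatid linker histones H1f9 and H1f7, the short H2A variants H2ap, H2al2a and H2al3, the H4 gene H4c1 and the H3.3 gene H3f3b fell by 18.7% to 29.7%. The antisense gene H3f3aos fell by 50.3%, and no histone gene passed the test upward. H3f3a, the other gene for H3.3, differed from its level in oxamate by -0.14%, and the sign of that difference changed between settings.

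Between oxamate and vehicle, 1 of 60 histone genes was lower and 0 were higher by edgeR's quasi-likelihood test at a Benjamini-Hochberg adjusted p under 0.05, where 1.22% of all tested genes were lower and 3.97% higher. Among the 21 abundant genes, those with a mean of at least 100 normalized counts, 1 was lower and 0 higher, against 1.59% lower and 8.08% higher of all genes at that level. In 3 of the 21 the oxamate libraries all lay below the vehicle libraries and in 2 they all lay above, against 10.7% and 16.5% of all genes at that level. At an unadjusted p under 0.05, 4 histone genes were lower and 2 higher, against 7.12% and 10.2% of all tested genes, and DESeq2 called 1 lower and 0 higher. The median log2 fold change was -0.05 over the histone genes and -0.01 over all genes, and with a trend on transcript length taken out of the fit 0.04 and -0.03, so that the direction of the histone median turned. Without oxamate library 4, H1f10 (log2 fold change -0.27), H2az1 (-0.22) and H2al2a were called lower and H3f3aos (0.51) higher.

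Between octyl-L-2HG and oxamate, 8 histone genes were lower and 0 higher by the same test, against 8.06% lower and 3.18% higher of all tested genes. The median log2 fold change was -0.28 over the histone genes and -0.04 over all genes, and -0.18 and -0.0029 with the length trend taken out. At an unadjusted p under 0.05, 17 were lower and 0 higher, against 15.1% and 8.5% of all tested genes, and DESeq2 also called 8 lower and 0 higher. All 8 lay among the 21 genes with a mean of at least 100, a share of 38.1%, where 12.7% of the 10715 tested genes at that level were lower and 7.06% higher. In 14 of those 21 genes every octyl-L-2HG library lay below every oxamate library, a separation that 18.3% of all genes at that level showed, and in 0 they lay above, against 24.4%.

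Between octyl-L-2HG and vehicle, 13 histone genes were lower and 0 higher, against 10.6% lower and 7.48% higher of all tested genes. Of these 13, 10 were among the 21 abundant genes (47.6%, against 13.6% lower and 16% higher of all genes at that level). The octyl-L-2HG libraries all lay below the vehicle libraries in 13 of the 21 and above in 0, against 19.4% and 33.6% of all genes at that level. At an unadjusted p under 0.05, 20 were lower and 0 higher, against 17.1% and 12.9% of all tested genes, and DESeq2 called 11 lower and 0 higher. The median log2 fold change was -0.26 over the histone genes and -0.05 over all genes, and -0.08 and -0.02 with the length trend taken out. Any difference among the 3 groups was called for 11 of 60 histone genes (18.3%), near the 19.8% of all genes, and for 9 of the 21 abundant ones, against 33.5%. Without vehicle library 1, 9 of the 13 were still called, and H2az2, H3f3b, H4c8 and H2af-ps2 were not. Without octyl-L-2HG library 7, and also without library 8, 9 histone genes were called. These comparisons share their vehicle, oxamate or octyl-L-2HG libraries, so their counts are not independent of each other.

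**Figure D3:**
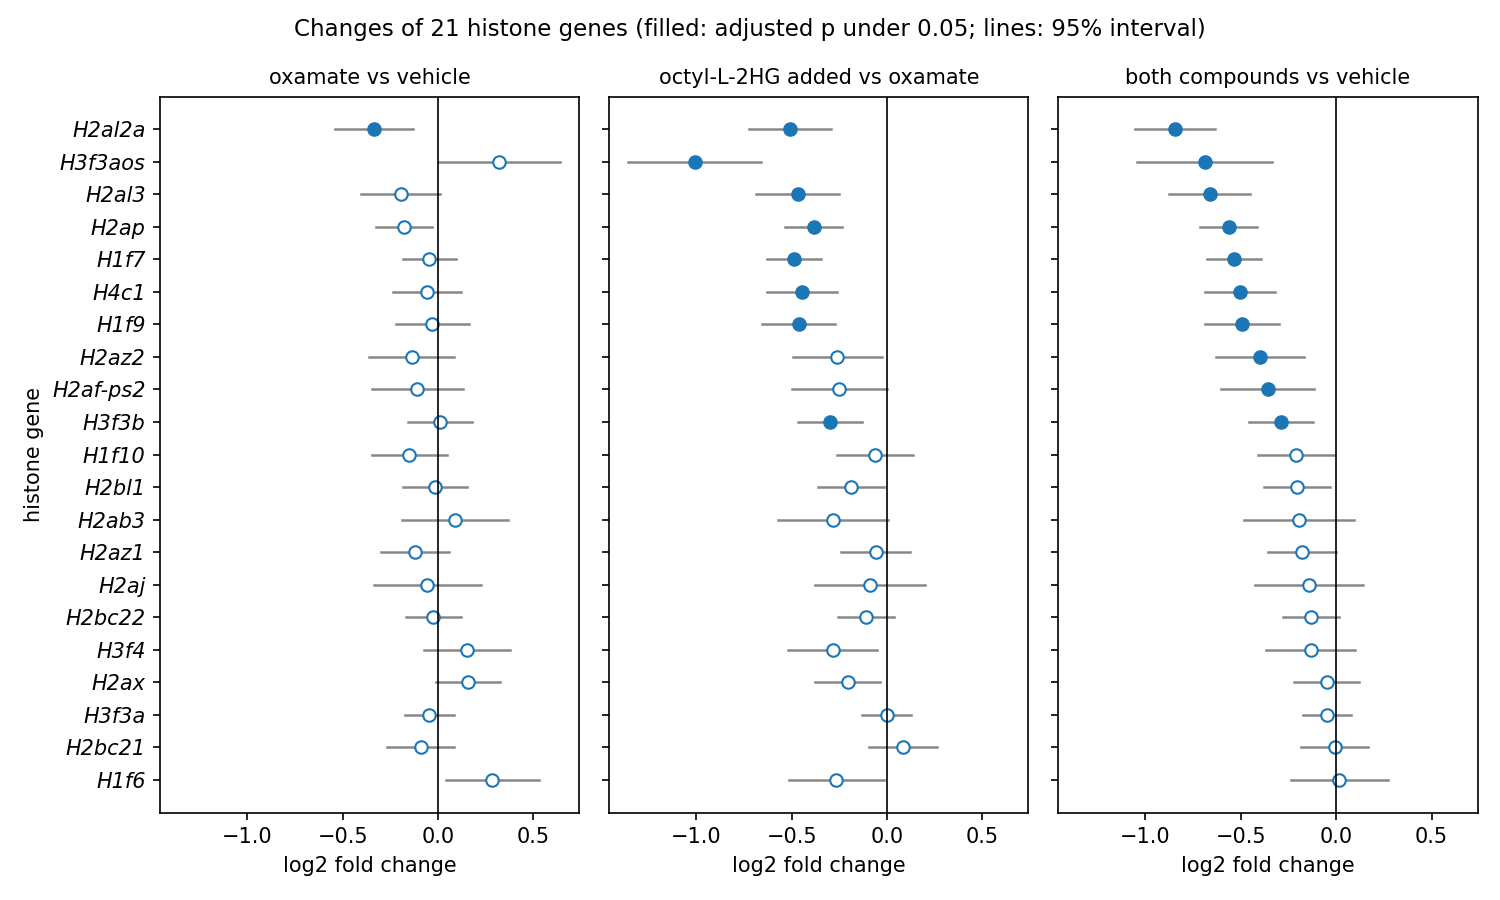
Log2 fold change of the 21 histone genes with a mean of at least 100 normalized counts in each of the 3 comparisons, with 95% intervals; filled points passed an adjusted p of 0.05 and 0 is no change. In the first panel only H2al2a is filled, and in the other panels 8 and 10 genes are filled, all below 0.

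Transcript length moved with these changes. The tested histone genes were short, with a median longest transcript of 600 bases against 2485 for all tested genes. Among all 1160 genes under 1000 bases with a mean of at least 100, the median log2 fold change between octyl-L-2HG and vehicle was -0.16, with 361 lower and 16 higher, and among the 9536 longer ones it was 0.05, with 1090 lower and 1693 higher. The 11 abundant histone genes under 1000 bases had a median of -0.36 with 6 lower, and the 10 longer ones a median of -0.20 with 4 lower. Between octyl-L-2HG and oxamate the medians were -0.29 and -0.15, against -0.07 and 0.02 for all genes of those lengths. With a smooth trend on length taken out of the fit, chosen after the data were seen, the same 8 genes were lower in octyl-L-2HG than in oxamate, 10 of the 13 were lower than in vehicle, and H2al2a was no longer called with oxamate alone. Against vehicle that fit gave smaller log2 fold changes for H1f9 (-0.33), H2ap (-0.34), H2al3 (-0.43) and H4c1 (-0.27), all still called. H2ac1, H2ax, H2bc22, H2bl1 and H3f4, not called against vehicle in either fit, turned from below to above 0.

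Linker histones gave the largest fall in counts. The germ cell class of H1f6, H1f7, H1f8 and H1f9 summed to 20663 ± 1456 (SD, n = 3) normalized counts in vehicle, 20117 ± 1329 in oxamate and 14788 ± 909 in octyl-L-2HG, and the last 3 libraries lay below the other 6. Of its 4 tested genes, 2 fell with octyl-L-2HG against either group, where 8.06% of all tested genes were lower against oxamate and 10.6% against vehicle. Both are among its 3 genes with a mean of at least 100, a level at which 12.7% and 13.6% of all genes were lower.

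H1f9 (chr11:94967593-94968456, plus strand, GRCm38) was counted 15792, 13168 and 13567 times after normalization in vehicle, 15672, 13617 and 12185 in oxamate and 9127, 10178 and 11322 in octyl-L-2HG. The vehicle and oxamate libraries overlapped, and all 3 octyl-L-2HG libraries lay below them. The log2 fold change against oxamate was -0.46 ± 0.09 (SE; edgeR's quasi-likelihood test, adjusted p = 0.00229) and that of oxamate against vehicle -0.03 ± 0.09 (adjusted p = 0.916).

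H1f7 (chr15:98255986-98257293, minus strand, GRCm38), which encodes the linker histone H1T2 found at the apical pole of the spermatid nucleus, gave 6302, 6068 and 6736 normalized counts in vehicle. It gave 5660, 6288 and 6507 in oxamate and 4700, 4375 and 4303 in octyl-L-2HG. The separation was again complete, and vehicle and oxamate overlapped. The log2 fold change was -0.49 ± 0.07 against oxamate (adjusted p = 7.04e-05) and -0.54 ± 0.07 against vehicle (adjusted p = 8.92e-06).

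H1f6, the linker histone H1t of spermatocytes, did not pass the test in any comparison. Its normalized counts were 127, 107 and 114 in vehicle, 150, 139 and 134 in oxamate and 115, 120 and 123 in octyl-L-2HG, so that oxamate was the highest group without overlap. The log2 fold change of oxamate against vehicle was 0.28 ± 0.12 (adjusted p = 0.20). H1f10, a linker histone of somatic cells that is not tied to replication, held 1208 to 1528 normalized counts in vehicle, 1072 to 1369 in oxamate and 1142 to 1207 in octyl-L-2HG. It was called in no comparison, with -0.21 ± 0.10 for octyl-L-2HG against vehicle (adjusted p = 0.139). That comparison was called in 3 of 16 alternative fits, with total counts as the scaling, with only the groups compared and without oxamate library 4 (adjusted p from 0.0218 to 0.0457). H1f0, linked to cells that have stopped dividing, ranged from 54.9 to 112 normalized counts with overlapping groups.

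Among the short and testis-specific H2A and H2B genes, 15 of 26 were tested. In this class 3 genes were lower in octyl-L-2HG than in oxamate, 5 lower than in vehicle and 1 lower in oxamate than in vehicle, with none higher, against 8.06%, 10.6% and 1.22% lower of all tested genes. Of its 5 genes with a mean of at least 100, 3, 3 and 1 were lower, against 12.7%, 13.6% and 1.59% of all genes at that level. Short H2A variants lack part of the H2A tail and wrap less DNA. H2A.L.2, the product of H2al2a, loosens nucleosomes so that transition proteins can load. H2al2a carried the only called change with oxamate.

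H2al2a (chr2:17996417-17996958, minus strand, GRCm38) stepped down from group to group. Its normalized counts were 538, 570 and 528 in vehicle, 491, 422 and 376 in oxamate and 290, 300 and 332 in octyl-L-2HG, with no overlap between any of the groups. The log2 fold change was -0.34 ± 0.10 for oxamate against vehicle (adjusted p = 0.0478), -0.51 ± 0.10 for octyl-L-2HG against oxamate (adjusted p = 0.00252) and -0.85 ± 0.10 for octyl-L-2HG against vehicle (adjusted p = 4.87e-06). The first of these was lost when any library other than oxamate library 4 was left out, with adjusted p from 0.0648 to 0.216.

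H2ap and H2al3 lie side by side on the X chromosome, 2194 bases apart and on the same strand (chrX:9846928-9847508 and chrX:9849703-9850255, GRCm38). H2ap gave 1343, 1315 and 1279 normalized counts in vehicle, 1137, 1195 and 1134 in oxamate and 861, 929 and 914 in octyl-L-2HG. H2al3 gave 399, 411 and 425, then 315, 384 and 377, then 230, 296 and 265. In both genes the 3 groups did not overlap, with vehicle highest and octyl-L-2HG lowest. Against oxamate, octyl-L-2HG changed H2ap by -0.38 ± 0.07 (adjusted p = 0.00136) and H2al3 by -0.47 ± 0.10 (adjusted p = 0.00541) on the log2 scale. Oxamate against vehicle gave -0.18 ± 0.07 (adjusted p = 0.173) and -0.20 ± 0.10 (adjusted p = 0.322), neither past the threshold. With the length trend taken out these were -0.07 (adjusted p = 0.67) and -0.08 (adjusted p = 0.743). Without octyl-L-2HG library 7 the adjusted p of H2al3 against oxamate was 0.0553.

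Of the H2al1 genes, X-linked copies related to H2al2a, H2al1n and H2al1m were called lower in octyl-L-2HG than in vehicle, at lower counts. H2al1n stood at 108, 104 and 110 in vehicle, 74.3, 99.1 and 88.8 in oxamate and 65.1, 76.1 and 74.9 in octyl-L-2HG. H2al1m stood at 71.1, 55.9 and 79.7, at 58.1, 51.0 and 60.3 and at 44.9, 42.7 and 34.6. Octyl-L-2HG against vehicle gave -0.60 ± 0.14 (adjusted p = 0.00452) for H2al1n and -0.79 ± 0.18 (adjusted p = 0.00308) for H2al1m. With the length trend taken out H2al1n stood at -0.36 (adjusted p = 0.0838) and was not called. Their annotated transcripts were 88.2% identical to each other and other pairs of H2al1 copies up to 98.6%, so reads of single copies may have been shared or dropped, and the values of single H2al1 genes are uncertain. H2al2a was 80.2% to 83.3% identical to the H2al1 copies, and H2al3 at most 57.0%.

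H2bl1, a testis H2B variant, and H2ab3, an X-linked short H2A.B gene, were not called. H2bl1 held 1549 to 1611 normalized counts in vehicle, 1329 to 1691 in oxamate and 1318 to 1447 in octyl-L-2HG. Its log2 fold change for octyl-L-2HG against vehicle was -0.20 ± 0.08 (adjusted p = 0.093), called in 3 of 16 alternative fits (adjusted p from 0.00997 to 0.0331). With the length trend taken out it was 0.04 (adjusted p = 0.777). The lowest of the oxamate values came from library 4, and without it H2bl1 was lower in octyl-L-2HG than in oxamate, by -0.29 on the log2 scale.

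**Figure D4:**
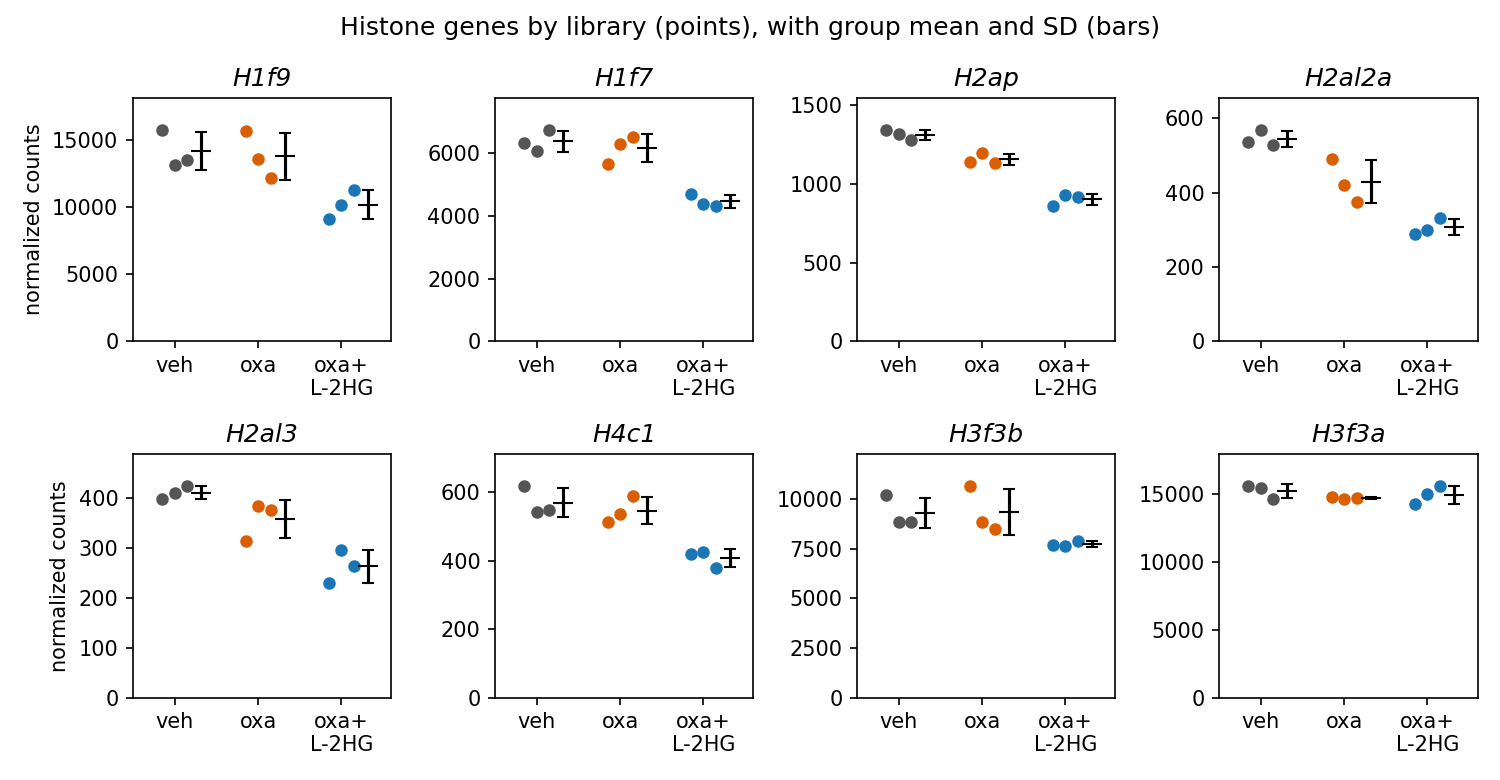
Normalized counts of 8 histone genes in each library (points) with the group mean and SD beside them; veh is vehicle, oxa is oxamate and oxa+L-2HG is oxamate with octyl-L-2HG, and each axis starts at 0. The octyl-L-2HG libraries lie below the other 6 in all panels but that of H3f3a, where the groups overlap.

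H4c1 (chr13:23760692-23761230, minus strand, GRCm38) stood out among the 6 tested H4 genes. It held 507 normalized counts per gene on average, and the next H4 gene, H4c3, 24.7. Its annotated transcript has no stem-loop letters but a poly(A) signal near its end. Vehicle libraries gave 618, 541 and 547, oxamate 512, 537 and 589 and octyl-L-2HG 420, 425 and 378, so that octyl-L-2HG separated from both other groups and these overlapped. The log2 fold change was -0.45 ± 0.09 against oxamate (adjusted p = 0.0022) and -0.50 ± 0.09 against vehicle (adjusted p = 0.000312). H3c1, a replication-dependent H3 gene that lies 622 bases from H4c1, carries the stem-loop letters, ranged from 46.1 to 84.4 and was not called. H4c8, at 7.9 to 20.8 counts, was called lower than vehicle (-0.90 ± 0.31, adjusted p = 0.0433), a call that was lost in 9 of 16 alternative fits.

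The promoters of the genes that carry the contrasts are shown from RefSeq (GRCm38.p6), 250 bases before to 50 after the start, on the strand of the gene. Of the 113 histone genes, 97 had such a promoter, 51 of them tested. Capitals mark, on either strand, the cAMP response element core TGACG, the TATA box TATAAA and the CCAAT box CCAAT. H4c1 is shown for its full cAMP response elements, H1f9 and H2al2a as spermatid genes that fell, and the H3.3 genes for the contrast between them.
H4c1, chr13:23761200-23761499: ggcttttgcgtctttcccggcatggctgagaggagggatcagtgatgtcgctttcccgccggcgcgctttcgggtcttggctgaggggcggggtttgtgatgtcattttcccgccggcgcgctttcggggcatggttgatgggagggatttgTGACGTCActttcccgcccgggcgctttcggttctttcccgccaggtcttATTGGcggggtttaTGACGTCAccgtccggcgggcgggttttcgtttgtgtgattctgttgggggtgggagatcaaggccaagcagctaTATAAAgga
H1f9, chr11:94967343-94967642: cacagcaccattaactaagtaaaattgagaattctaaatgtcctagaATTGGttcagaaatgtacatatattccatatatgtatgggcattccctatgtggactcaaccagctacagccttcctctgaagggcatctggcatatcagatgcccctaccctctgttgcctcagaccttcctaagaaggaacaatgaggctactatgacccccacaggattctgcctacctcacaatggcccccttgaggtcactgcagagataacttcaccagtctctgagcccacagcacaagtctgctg
H2al2a, chr2:17996909-17997208: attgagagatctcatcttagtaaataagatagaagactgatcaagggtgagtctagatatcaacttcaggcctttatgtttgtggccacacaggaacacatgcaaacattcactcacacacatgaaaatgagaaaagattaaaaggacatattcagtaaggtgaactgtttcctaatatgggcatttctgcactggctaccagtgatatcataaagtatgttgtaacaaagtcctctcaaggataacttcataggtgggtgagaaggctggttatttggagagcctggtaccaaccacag
H3f3b, chr11:116024455-116024754: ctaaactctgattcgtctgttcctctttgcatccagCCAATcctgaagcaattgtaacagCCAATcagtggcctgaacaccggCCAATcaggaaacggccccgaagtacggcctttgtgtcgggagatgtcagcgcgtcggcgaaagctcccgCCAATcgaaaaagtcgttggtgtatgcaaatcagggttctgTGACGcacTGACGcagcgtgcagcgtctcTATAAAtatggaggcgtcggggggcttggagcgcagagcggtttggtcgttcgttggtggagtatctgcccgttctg
H3f3a, chr1:180813556-180813855: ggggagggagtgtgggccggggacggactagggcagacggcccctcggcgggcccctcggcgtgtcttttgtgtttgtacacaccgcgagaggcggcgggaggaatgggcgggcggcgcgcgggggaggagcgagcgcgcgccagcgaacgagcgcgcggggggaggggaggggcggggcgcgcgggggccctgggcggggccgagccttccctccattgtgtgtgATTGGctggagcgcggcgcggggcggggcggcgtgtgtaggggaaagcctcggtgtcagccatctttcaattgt

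The H4c1 window holds 2 copies of the full palindromic cAMP response element TGACGTCA, the site of the CREB and CREM factors. This element was present in 1.79% of the 32851 promoters of the table and in 4 of the 51 histone promoters (7.84%), those of H4c1, H4c8, H2bc11 and H2ac11. The windows of H2bc11 and H2ac11, on opposite strands, overlap and hold the same single copy, so that the 4 promoters stand for 3 places in the genome. The core TGACG, which also lies within the full element, was present in 43.1% of histone promoters and in 20.8% of all, the TATA box in 35.3% and 13.6%, and the CCAAT box in 70.6% and 37.4%. H3f3b holds 4 CCAAT boxes, 2 cores and a TATA box. H3f3a holds 1 CCAAT box and 6 GC boxes (GGGCGG, not capitalised), a motif found in 35.3% of histone promoters and 35.7% of all. H1f9 holds 1 CCAAT box and H2al2a none of these letters. These are matches of letters in a window, and binding was not measured.

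H3f3a and H3f3b encode the same protein, the replacement histone H3.3, which is placed into chromatin outside S phase. Their annotated transcripts are 46.4% identical. H3f3b (chr11:116021912-116027962, minus strand, GRCm38) gave 10195, 8872 and 8859 normalized counts in vehicle, 10665, 8848 and 8517 in oxamate and 7703, 7620 and 7890 in octyl-L-2HG. All octyl-L-2HG values lay below the others, and vehicle and oxamate overlapped. Its log2 fold change was -0.30 ± 0.08 against oxamate (adjusted p = 0.0186) and -0.29 ± 0.08 against vehicle (adjusted p = 0.0147). H3f3a (chr1:180800832-180813943, minus strand, GRCm38) gave 15581, 15412 and 14636, then 14793, 14622 and 14665, then 14257, 14989 and 15561. Its groups overlapped, and the interval of its log2 fold change against oxamate was -0.13 to 0.13.

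The ratio of H3f3b to H3f3a, a comparison chosen after their values were seen, was 0.576 to 0.654 in vehicle, 0.581 to 0.721 in oxamate and 0.507 to 0.540 in octyl-L-2HG. The octyl-L-2HG ratios lay below all others, by 0.29 on the log2 scale against oxamate. No test was made of the ratio. Without oxamate library 4 the log2 fold change of H3f3b against oxamate was -0.19 (adjusted p = 0.0293). Its call against oxamate was lost when any of the octyl-L-2HG libraries was left out, with adjusted p from 0.0540 to 0.0936. That against vehicle was lost without vehicle library 1 (adjusted p = 0.0828), octyl-L-2HG library 7 (adjusted p = 0.0676) or octyl-L-2HG library 8 (adjusted p = 0.0724). H3f4, placed in the same class as a single H3 gene beside the H3.3 pair, held 117 to 154 normalized counts and was not called.

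H3f3aos, a noncoding gene on the opposite strand whose start overlaps that of H3f3a by 168 bases, matched the name rule. It gave 141, 167 and 193 normalized counts in vehicle, 151, 242 and 234 in oxamate and 113, 84.2 and 116 in octyl-L-2HG. The octyl-L-2HG libraries were the lowest, by -1.01 ± 0.17 against oxamate (adjusted p = 0.000451) and -0.69 ± 0.17 against vehicle (adjusted p = 0.00639) on the log2 scale. The call against vehicle was lost without vehicle library 3 (adjusted p = 0.0529) or octyl-L-2HG library 8 (adjusted p = 0.0542). The strand setting of the counting was not given in the sources used here, so reads of H3f3a in the shared bases may have been counted or dropped here.

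The H2A.Z genes, whose product marks promoters, and H2ax, whose product is phosphorylated at DNA breaks and on the sex chromosomes in meiosis, were tested together with H2aj, and 1 of these 4 genes was called against vehicle, where 10.6% of all tested genes and 13.6% of those with a mean of at least 100 were lower. H2az2 fell between vehicle (286, 225 and 240 normalized counts) and octyl-L-2HG (193, 201 and 185), by 0.40 ± 0.11 on the log2 scale (adjusted p = 0.0138), with oxamate at 208 to 244, a call that was lost without vehicle library 1 (adjusted p = 0.0968), octyl-L-2HG library 7 (adjusted p = 0.0540) or octyl-L-2HG library 9 (adjusted p = 0.0636). H2az1, the more abundant of the pair per length, gave 4537 to 5490.0 normalized counts in vehicle and 4154 to 4718 in octyl-L-2HG, which overlap (-0.18 ± 0.09, adjusted p = 0.164), and it was called with total counts and without oxamate library 4 (adjusted p = 0.0460 and 0.0268). H2ax held 700 to 807 in vehicle, 801 to 889 in oxamate and 724 to 793 in octyl-L-2HG, with no call other than against oxamate with total counts (adjusted p = 0.0466). H2aj, an H2A variant gene outside the replication programme, ranged from 121 to 182 and was not called.

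Replication-dependent H2A, H2B and H3 genes gave no call in any comparison, with 8, 6 and 5 genes tested. Only 2 of these, H2bc22 and H2bc21, had a mean of at least 100 normalized counts. Of all tested genes, 1.22%, 8.06% and 10.6% were lower and 3.97%, 3.18% and 7.48% higher in the 3 comparisons, and all of these shares were larger among genes with a mean of at least 100, so nothing is read from their absence here. The H2B class was dominated by H2bc22, with 2475, 2162 and 2263 normalized counts in vehicle, 2240, 2312 and 2214 in oxamate and 2044, 2123 and 2215 in octyl-L-2HG. These groups overlapped, and its log2 fold change for octyl-L-2HG against vehicle had an interval of -0.28 to 0.01. H2bc21 held 423 to 500 normalized counts with an interval of -0.18 to 0.17. H2aw, with the most counts per gene of the H2A class though not per kb, ranged from 52.4 to 92.5. With the stem-loop letters, 1 of 26 tested genes was lower in octyl-L-2HG than in vehicle, and without them 12 of 34, against 10.6% of all tested genes. Of the genes with a mean of at least 100, these were 0 of 3 and 10 of 18, against 13.6% at that level. The medians were -0.28 with the letters and -0.25 without, and the counts of the former are low. H2af-ps2, named as a pseudogene, was called lower in octyl-L-2HG than in vehicle (-0.36 ± 0.12, adjusted p = 0.0372), a call that was lost in 9 of 16 alternative fits, and with the length trend taken out it was at -0.07.

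Genes that act on histones were read from lists, and every called gene on the chaperone, histone mRNA, S phase and exchange lists had a mean of at least 100 normalized counts. Of all genes at that level, 7.06% were higher and 12.7% lower in octyl-L-2HG than in oxamate, 16% higher and 13.6% lower than in vehicle, and 8.08% higher and 1.59% lower in oxamate than in vehicle. Of 25 histone chaperones, 21 of them at that level, 3 (12%) were higher and 0 lower in octyl-L-2HG than in oxamate. Compared with vehicle, 5 (20%) were higher, near the 16% above, and 0 lower, with a median log2 fold change of 0.16. Nasp, the chaperone of H3-H4 and of H1, rose by 0.29 ± 0.08 against oxamate (adjusted p = 0.0214), and Ssrp1, a subunit of FACT, by 0.28 ± 0.06 (adjusted p = 0.00739). Ubn1, of the HIRA complex that deposits H3.3, rose by 0.45 ± 0.07 against vehicle (adjusted p = 0.000114). Cabin1, of the same complex, was the 1 chaperone that rose with oxamate alone, by 0.38 ± 0.07 (adjusted p = 0.00226). Hira itself was scarce, with means of 28.3 to 35.2 normalized counts, and Asf1a was not called.

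For transcription, 3-prime processing and decay of histone mRNA, 23 of 24 listed symbols were tested, and 4 (17.4%) were higher and 1 (4.35%) lower in octyl-L-2HG than in vehicle, near the 16% higher of all genes with a mean of at least 100, a level that 21 of the 23 reached. Against oxamate 1 was higher and 1 lower. Slbp, which binds the stem-loop, was at 0.01 ± 0.07 for octyl-L-2HG against vehicle (adjusted p = 0.945). Npat, the activator of replication-dependent histone genes, rose by 0.27 ± 0.08 against vehicle (adjusted p = 0.0175). The exonuclease gene Eri1 rose by 0.40 ± 0.09 against vehicle (adjusted p = 0.00387). Cstf3, a cleavage factor of polyadenylated mRNA, fell by 0.37 ± 0.08 against oxamate (adjusted p = 0.00391), and Srrt, which links the cap-binding complex to RNA processing, rose by 0.24 ± 0.07 (adjusted p = 0.0236). Fip1l1, another polyadenylation factor, rose with oxamate alone by 0.29 ± 0.08 (adjusted p = 0.0356). Of 19 tested S phase genes, 2 (10.5%) were higher and 1 (5.26%) lower in octyl-L-2HG than in vehicle, with 12 of the 19 at a mean of at least 100, the last being the cyclin gene Ccne2 (-0.83 ± 0.16, adjusted p = 0.000584), and against oxamate the helicase gene Mcm4 was lower (-0.46 ± 0.13, adjusted p = 0.0246) and Gins2, of the same replicative helicase, higher (0.40 ± 0.12, adjusted p = 0.0335). Of the macroH2A genes, which lie outside the name rule, Macroh2a2 rose with oxamate by 0.49 ± 0.14 (adjusted p = 0.0452) and Macroh2a1 was not called.

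Some of the genes that exchange histones for protamines fell as well. Of 15 tested genes on this list, which shares H2al2a with the members and holds H1f9 under an older symbol that did not match, 5 were lower in oxamate than in vehicle, 7 lower in octyl-L-2HG than in oxamate and 7 lower than in vehicle, with 1 higher in each of the last comparisons. Of all genes with a mean of at least 100, which 14 of the 15 had, 1.59%, 12.7% and 13.6% were lower in these comparisons. At that level 1160 genes had a longest transcript under 1000 bases, and 47, 210 and 361 of these were lower. The part of transcript length in the fall of this list was not tested. The median log2 fold changes of the list were -0.12, -0.24 and -0.15. Tnp1, a transition protein, changed by -0.26 ± 0.07 with oxamate (adjusted p = 0.0192) and by -0.29 ± 0.07 with octyl-L-2HG added (adjusted p = 0.00611). Prm1, a protamine, changed by -0.45 ± 0.07 (adjusted p = 0.000224) and -0.32 ± 0.07 (adjusted p = 0.0027). Tssk6, a kinase of spermatids needed for chromatin condensation, fell by 0.86 ± 0.11 with octyl-L-2HG added (adjusted p = 2.03e-05). Phf7 was the 1 gene higher than in oxamate, by 0.18 ± 0.06 (adjusted p = 0.0438). Epc1 was the 1 gene higher than in vehicle, by 0.30 ± 0.07 (adjusted p = 0.003).

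Of the 10 markers of elongating spermatids, which include Tnp1, Tnp2, Prm1 and Prm2, 8 were lower in octyl-L-2HG than in vehicle, 6 lower than in oxamate and 4 lower in oxamate than in vehicle, beside 13.6%, 12.7% and 1.59% of all genes with a mean of at least 100. Their summed level, dominated by Odf2, ranged from 278088 to 290342 in vehicle, 263626 to 276531 in oxamate and 262746 to 283376 in octyl-L-2HG. Of the 10 RS markers, 3 were lower and 2 higher in octyl-L-2HG than in vehicle, against 13.6% and 16% at that level. The part of spermatid stage in the fall of the histone genes was not tested, nor that of transcript length in these marker counts.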

How the data were processed

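RNA of RS cells was sequenced in 3 libraries per group after poly(A) selection with a stranded kit. Per the labels and the methods, the authors trimmed reads with fastx_toolkit and cutadapt 2.10, aligned them with TopHat2 2.1.1 to GRCm39 with Ensembl annotation, and deposited the raw count per gene from HTSeq 2.01. They also deposited a normalized signal, the count divided by the DESeq2 1.36.0 size factor of the library, which gave all normalized counts printed here. Genes with at least 10 summed counts went into edgeR 4.0.16 under R 4.3.3 (TMM, robust quasi-likelihood fit of all 9 libraries, group as the only term, Benjamini-Hochberg threshold 0.05), a fit checked on simulated data. SE and 95% intervals come from that fit.

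The histone genes and lists were chosen with earlier results of these data known. Named were the variant genes, the most abundant gene of each class, the 5 largest called changes in either direction among genes with a mean of at least 100, the leading called gene of each list, and Slbp, Npat, Hira, Nasp, Asf1a, Macroh2a1, Tnp1 and Prm1. H2ab3, H2al1m, H2al1n, H2bc21, H4c3 and H4c8 were named after their values were seen. Positions, transcripts and promoters are on GRCm38 (GENCODE M21, RefSeq), matched by gene identifier or symbol, since the deposited table holds no coordinates.

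Alternatives were DESeq2 1.42.0, other scalings and filters, fits of only the groups compared, each library left out, and a length trend (local regression, span 0.5) added after the data were seen.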

Additional observations from a re-analysis of the deposited data

How the results depend on the processing

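No paired analysis was possible because the libraries are numbered 1 to 9 and no number is shared between groups. Under 16 alternatives, the number of histone genes lower with octyl-L-2HG stayed within 6 to 9 against oxamate and 9 to 17 against vehicle, with none higher under any of them, and the number with any difference within 8 to 15. Without oxamate library 4, and with total counts as the scaling, 17 were lower than vehicle. For oxamate against vehicle, the count of lower genes was 0 with only the groups compared and 0 with the length trend, and ran from 0 to 3 with 1 library left out, 3 without oxamate library 4. The count of higher genes ran from 0 to 1 with 1 library left out, 1 without oxamate library 4. Of 22 called pairs of a gene and a comparison, 13 were called under all 16 alternatives, and none changed sign. Against vehicle, H3f3b was lost without vehicle library 1 (adjusted p = 0.0828) and octyl-L-2HG libraries 7 (0.0676) and 8 (0.0724), and H2az2 without vehicle library 1 (0.0968) and octyl-L-2HG libraries 7 (0.0540) and 9 (0.0636). H2af-ps2 and H4c8 were each lost in 9 of 16 alternatives, and without vehicle library 1 H2af-ps2 stood at -0.24 (adjusted p = 0.221). H3f3aos against vehicle had an adjusted p of 0.0529 without vehicle library 3 and 0.0542 without octyl-L-2HG library 8. H2al1n had 0.0838 with the length trend. Depth limits the genes with few counts, of which 39 of 60 had a mean under 100.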
